A study of Mus musculus with 2 samples.

Results

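The genes described here are 10 transcription factors known for their roles in the identity of natural killer (NK) cells and of group 1 innate lymphoid cells (ILC1), out of 31053 genes in the count tables. The set is a list of known regulators, Tbx21, Eomes, Id2, Nfil3, Zeb2, Irf8, Prdm1, Tcf7, Zfp683 and Ikzf2. The rule that defines it uses no measured value, but the list was chosen with earlier results of these data known. The cells were sorted by flow cytometry as NK cells from the brains of 8-month-old female mice, and their RNA was counted cell by cell with the 10x Genomics 5′ kit. The control group was wildtype C57BL/6 and the other group was 3XTg-AD, a transgenic line used as a model of Alzheimer disease, and neither group was treated. Each group was 1 library. The sources used here give neither the number of mice behind a library nor the strain background of the 3XTg-AD line.

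The differences below carry no test, because neither group had a second library. Levels are unique molecular identifiers (UMIs, counted RNA molecules) summed over a group of cell barcodes and divided by all UMIs of that group, as counts per 1000000 (CPM). Every interval is an exact 95% interval and covers counting error only, so it describes neither animals nor preparations. A gene was taken as measured in a comparison with at least 20 UMIs over both sides, and a ratio of at least 1.5-fold was the size counted. A ratio between barcode groups was counted only where it had that size in the same direction in both libraries.

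NK cells and ILC1 share a transcriptional core. The T-box factors T-bet (Tbx21) and Eomes act together in NK cell development, and classical ILC1 are known to depend on T-bet and to lack Eomes. As NK cells mature, they lose CD27 and gain KLRG1, while Tcf7 gives way to Zeb2, Prdm1 and a high T-bet dose.

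All positions are on GRCm38/mm10, with GENCODE M21 genes. Tbx21 (ENSMUSG00000001444) lies at chr11:97098071-97115331 and Eomes (ENSMUSG00000032446) at chr9:118478212-118486132. Id2 (ENSMUSG00000020644) spans chr12:25093799-25097140, and Nfil3 (ENSMUSG00000056749) spans chr13:52967209-52981073. Zeb2 (ENSMUSG00000026872) covers chr2:44983632-45117395, Irf8 (ENSMUSG00000041515) chr8:120736358-120756694 and Prdm1 (ENSMUSG00000038151) chr10:44437177-44528501. Tcf7 (ENSMUSG00000000782) sits at chr11:52252371-52283014, Zfp683 (ENSMUSG00000049410) at chr4:134053838-134058996 and Ikzf2 (ENSMUSG00000025997) at chr1:69531214-69687245. Zeb2 overlaps the antisense gene Zeb2os, which held 82 UMIs in NK barcodes of the wildtype and 83 in those of the 3XTg-AD library. Eomes overlaps Gm33460, with 46 and 35 UMIs in the same barcodes. On the same strand, Tcf7 overlaps Gm26551 and Irf8 overlaps Gm20388, so shared reads of these pairs cannot be assigned by strand. The sources used here do not state the strand setting of the counting. Zeb2os and Gm33460 were counted with UMIs of their own, and how reads of these antisense pairs were assigned was not examined.

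The promoters of Tbx21, Prdm1 and Eomes are shown because these factors differed between NK and ILC1-like barcodes or within the latter, and because their windows hold short motifs of kinds that other members of the set are known to bind. Each is the 250 bases before the most upstream start that RefSeq lists on GRCm38.p6, read 5′ to 3′ on the gene's strand. The Tbx21 window is chr11:97115332-97115581 on the minus strand, the Prdm1 window chr10:44458749-44458998 on the minus strand, and the Eomes window chr9:118477939-118478188 on the plus strand. Capitals mark CACCTG (as CAGGTG), an E-box of the kind ZEB2 binds, TGGGAA (as TTCCCA), the core of IKZF sites, and an interferon-response element, a pair of GAAA half-sites with any 2 bases between, of the kind IRF factors bind.
Tbx21: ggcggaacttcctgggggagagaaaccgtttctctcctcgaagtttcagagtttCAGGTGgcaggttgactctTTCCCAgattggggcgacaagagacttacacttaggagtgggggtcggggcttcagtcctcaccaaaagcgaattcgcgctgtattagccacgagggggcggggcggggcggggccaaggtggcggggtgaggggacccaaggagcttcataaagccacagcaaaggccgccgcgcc
Prdm1: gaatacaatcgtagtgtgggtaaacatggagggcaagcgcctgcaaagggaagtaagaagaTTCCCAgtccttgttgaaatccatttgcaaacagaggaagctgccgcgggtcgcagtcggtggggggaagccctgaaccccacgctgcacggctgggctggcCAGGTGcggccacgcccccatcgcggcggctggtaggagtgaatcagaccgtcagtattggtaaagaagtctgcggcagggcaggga
Eomes: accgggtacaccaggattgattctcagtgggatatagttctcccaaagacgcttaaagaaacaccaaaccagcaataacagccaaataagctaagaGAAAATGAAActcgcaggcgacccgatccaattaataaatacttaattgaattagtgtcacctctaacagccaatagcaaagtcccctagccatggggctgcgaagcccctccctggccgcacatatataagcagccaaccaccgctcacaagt

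Both strands were searched for 7 motifs in the listed promoters of the 8 members that had one (all but Zfp683 and Ikzf2). CACCTG occurred in 17.2% of 32851 listed mouse promoters of the same length, TGGGAA in 21.6% and the interferon-response element in 2.98%. Among the members, CACCTG and TGGGAA occurred at Tbx21, Prdm1 and Irf8 (at Irf8 before another listed start), and the interferon-response element at Eomes. The T-box motif GGTGTGA (3.33% of promoters), the NFIL3 motif TTANGTAA (2.06%), the RUNX motif TGTGGT (14.0%) and the TCF motif CTTTGA (13.8%) were in no member's listed windows. A match is a description of letters and shows no binding.

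The 2 libraries were alike in size, with 1709 wildtype and 1695 3XTg-AD barcodes, 5559995 and 5468455 UMIs, and medians of 2930 and 2846 UMIs per barcode. They shared 1 barcode sequence. After filters, 1483 wildtype and 1510 3XTg-AD barcodes were NK by the marker rule, and 92 and 75 were ILC1-like, meaning at least 3 summed UMIs of Itga1, Cxcr6, Inpp4b, Gzmc and Tnfsf10. The ILC1-like barcodes were deeper (medians of 5355 and 5514 UMIs) than the NK barcodes (2863 and 2790), so shares of barcodes are given after thinning each barcode to 1400 UMIs. In NK barcodes, a list of immediate-early and heat-shock genes summed to 2045 CPM in the wildtype and 2493 in the 3XTg-AD library, and a list of interferon-stimulated genes to 646 and 270 CPM. Doublets were removed with Scrublet in each library.

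The ILC1-like name was compared with 15 genes that the rule did not use, and 11 of them were measured. The gene lists of this paragraph were chosen with earlier results of these data known, so they are no independent check. Of the 11, 8 were at least 1.5-fold higher than in NK barcodes in both libraries, among them Tmem176a, Tmem176b, Cd200r1 and Cxcr3, and Cd69 was lower, where 5.92% of 8847 measured genes were higher and 13.5% lower. Of 16 measured genes of mature NK cells, 13 were lower and 2 (S100a6 and Irf2bp2) higher. Of 11 measured genes of immature NK cells, 7 were higher (Ctla2a, Xcl1, Cd7, Ltb, Thy1, Cxcr3 and Tnfrsf9) and 0 lower, with median log2 ratios of 1.55 and 2.23. Xcl1, Ltb and Cxcr3 are among the higher ILC1 genes too, so these lists overlap. Il7r, also on both lists, was not called. It stood at 52.5 CPM in ILC1-like and 52.9 CPM in NK barcodes of the wildtype, and at 87.2 and 21.7 CPM in 3XTg-AD. Eomes went against the name, since the ILC1-like barcodes held it close to the NK level, as described below. "ILC1-like" therefore stands only for the marker rule. Defining ILC3 markers reached 1.87 and 2.36 CPM there.

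T-bet, the factor both lineages are known to require, was lower in ILC1-like barcodes. Tbx21 stood at 286 CPM (271 to 302) in wildtype NK barcodes and 78.7 CPM (56.7 to 106) in wildtype ILC1-like barcodes. In the 3XTg-AD library it was 372 CPM (354 to 390) and 66.0 CPM (43.9 to 95.4). The intervals did not overlap in either library, and the level was 3.64-fold and 5.63-fold lower in the ILC1-like barcodes. After thinning, 31.5% and 39.1% of NK barcodes held a Tbx21 UMI, against 7.78% and 13.3% of ILC1-like barcodes. The few T barcodes, 19 and 18 in number, held 199 and 87.4 CPM, and T cells are themselves known to use T-bet.

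Eomes, the second T-box factor, was at a similar level in both groups. It stood at 217 CPM in wildtype NK and 187 CPM (152 to 228) in wildtype ILC1-like barcodes, and at 237 and 193 CPM (154 to 240) in the 3XTg-AD library. The ratios of ILC1-like to NK were 0.862 (0.695 to 1.06) and 0.816 (0.644 to 1.02), and both intervals held 1. The thinned shares of barcodes with an Eomes UMI were 25.7% in NK and 26.7% in ILC1-like barcodes of the wildtype, and 28.4% and 28.0% in the 3XTg-AD library.

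Zeb2, a repressor known to drive the last steps of NK maturation, had the lowest ratio of the set in the wildtype. Its level was 209 CPM in wildtype NK against 15.0 CPM (8 UMIs, 6.47 to 29.5) in wildtype ILC1-like barcodes, and 250 against 14.1 CPM (6 UMIs, 5.19 to 30.8) in the 3XTg-AD library, which is 14.0-fold and 17.7-fold lower. Zeb2 UMIs occurred in 8.70% of wildtype and 6.67% of 3XTg-AD ILC1-like barcodes before thinning, below the 21.1% and 11.1% of T barcodes, whose median depths were 3150 and 4240 UMIs. The T barcodes set no background level for Zeb2, since they also held the NK receptor gene Ncr1 at 431 and 1037 CPM.

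Irf8, an interferon regulatory factor that mature NK cells are known to need, was also low in ILC1-like barcodes. It was counted at 721 CPM in wildtype and 735 CPM in 3XTg-AD NK barcodes, and at 93.7 CPM (69.5 to 123) and 68.4 CPM (45.8 to 98.2) in ILC1-like barcodes. That is 7.69-fold and 10.7-fold lower, with intervals far apart. Thinned shares were 48.1% and 50.6% in NK against 7.78% and 5.33% in ILC1-like barcodes, and T barcodes held 33.2 and 25.0 CPM.

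Prdm1, which encodes the repressor Blimp-1, was at or near 0 in ILC1-like barcodes. It had 158 and 194 UMIs in NK barcodes (34.3 and 42.0 CPM), 2 UMIs in wildtype ILC1-like barcodes (3.75 CPM, 0.454 to 13.5) and 0 in the 3XTg-AD ones. The wildtype ratio was 0.109 (0.0131 to 0.401). In the 3XTg-AD library, set against a floor of 3 UMIs over the group, the level was at least 5.94-fold lower.

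Tbx21, Zeb2, Prdm1 and Irf8 were thus the 4 of 9 measured members at least 1.5-fold lower in ILC1-like barcodes of both libraries, and 0 members were higher. The background was 19.4% of 8847 measured genes called in either direction. The members' median log2 ratio was -0.21 in the wildtype and -1.27 in the 3XTg-AD library, where that of all measured genes was -0.16 and -0.24. The immediate-early and heat-shock genes moved with this contrast, with 8 of 12 measured lower and 0 higher, and sums of 1396 CPM in ILC1-like against 2045 CPM in NK barcodes of the wildtype and 1228 against 2493 CPM in 3XTg-AD. Their part in the members' ratios was not tested. In the plot of levels by barcode group these 4 factors step down at the last group, and Eomes does not.

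**Figure D1:**
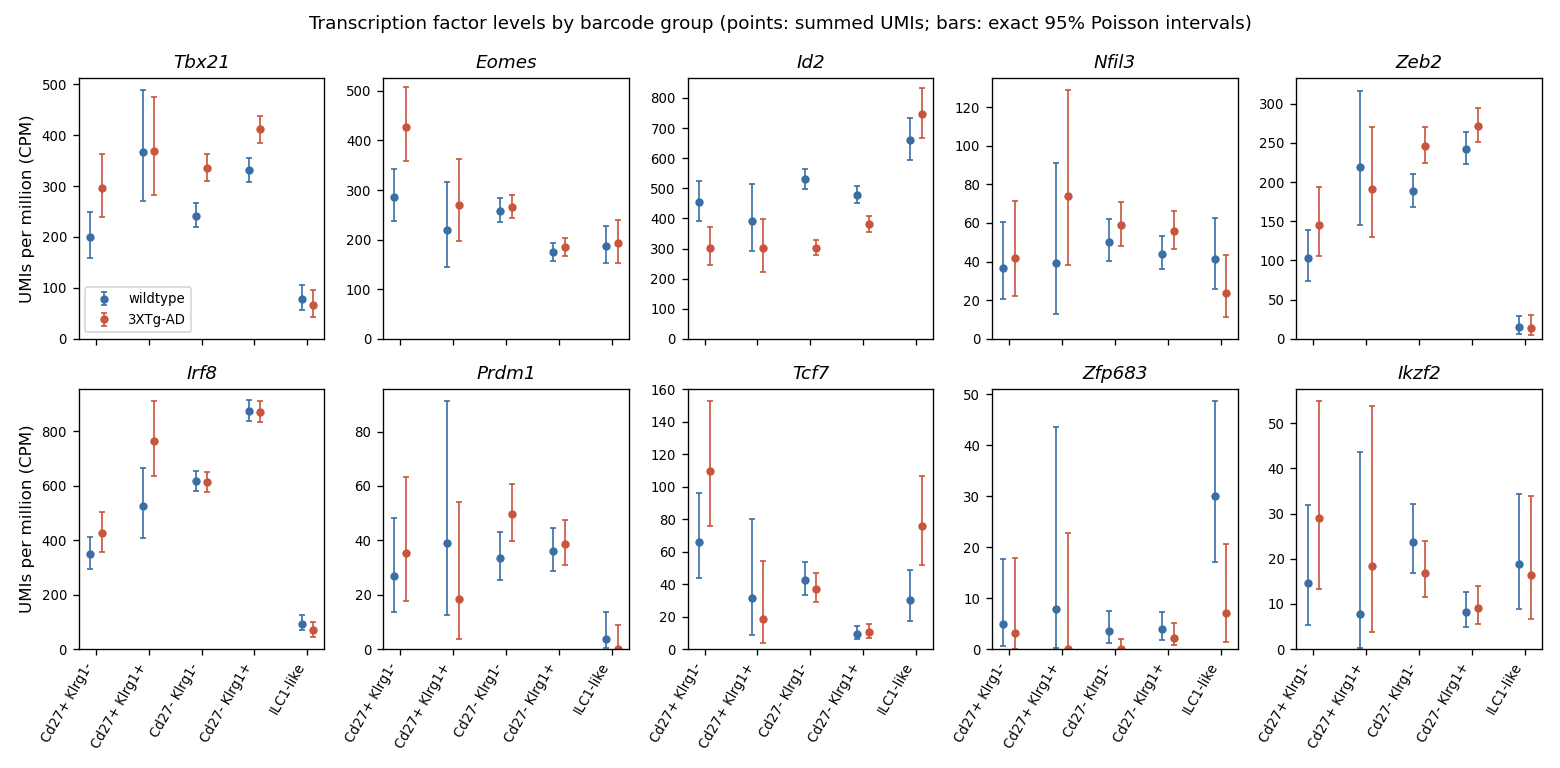
Level of each transcription factor in CPM (y axis, linear, from 0) in the NK barcodes split by Cd27 and Klrg1 detection and in ILC1-like barcodes (x axis), with blue points for wildtype, red points for 3XTg-AD and bars for exact 95% Poisson intervals. Zeb2 stands at 15.0 and 14.1 CPM in ILC1-like barcodes, far below every NK group, while Eomes at 187 and 193 CPM does not stand apart.

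Id2, the inhibitor of E proteins on which innate lymphoid cells are known to depend, was higher in ILC1-like barcodes. It stood at 493 CPM (473 to 514) in wildtype NK and 659 CPM (592 to 732) in wildtype ILC1-like barcodes, and at 342 CPM (325 to 359) and 747 CPM (667 to 834) in the 3XTg-AD library. The ratio was 1.34 (1.19 to 1.5) in the wildtype, short of the 1.5-fold size, and 2.19 (1.93 to 2.47) in the 3XTg-AD library. The median gene with 100 or more UMIs was itself lower in ILC1-like barcodes, by -0.18 and -0.29 on the log2 scale. Relative to that median the Id2 log2 ratios were 0.60 and 1.41, past 1.5-fold in both libraries.

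Nfil3, a factor that NK precursors are known to require, had a ratio of 0.904 (0.555 to 1.41) in the wildtype, on 22 ILC1-like UMIs, and of 0.415 (0.197 to 0.776) in the 3XTg-AD library, on 10. Ikzf2, which encodes the Ikaros family member Helios, had ratios of 1.29 (0.591 to 2.52) and 1.19 (0.460 to 2.60). Both Ikzf2 intervals held 1.

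Zfp683 encodes Hobit, known as a factor of tissue-resident lymphocytes. Its 18 UMIs in wildtype NK barcodes gave 3.91 CPM, and its 16 UMIs in 13 wildtype ILC1-like barcodes gave 30.0 CPM, a ratio of 7.67 (3.66 to 15.9). In the 3XTg-AD library 6 NK and 3 ILC1-like UMIs gave 1.30 and 7.07 CPM, too few to count as measured, with a ratio of 5.44 (0.881 to 25.5). Zfp683 was thus a rare transcript in both libraries, and its wildtype level in ILC1-like barcodes was above its NK level.

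**Figure D2:**
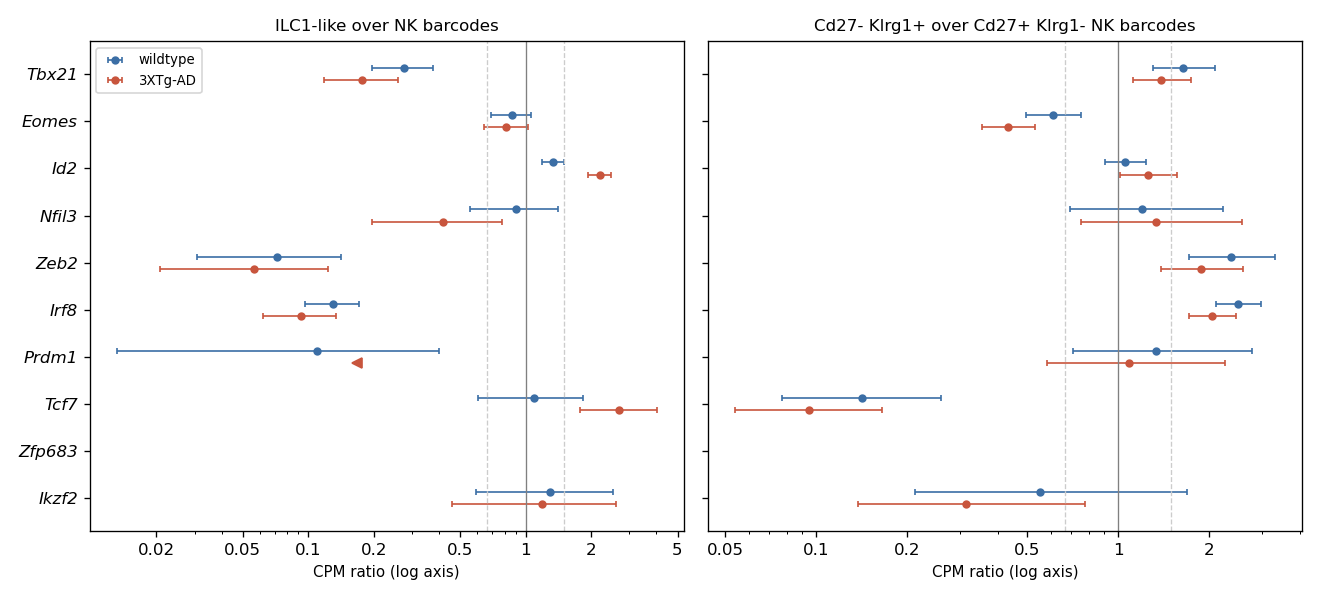
Ratio of CPM on a log axis (x axis) for each measured transcription factor (y axis), for ILC1-like over NK barcodes and for Cd27- Klrg1+ over Cd27+ Klrg1- NK barcodes, with blue for wildtype, red for 3XTg-AD, bars for exact 95% intervals, dashed lines at 1.5-fold, and an arrowhead for the Prdm1 bound against 0 UMIs. Zeb2, Irf8 and Tbx21 lie left of the lower line in the first contrast, and Tcf7 lies farthest left in the second, at 0.142 and 0.0951. Zfp683 is not drawn because it was not measured in both libraries.

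The boundary of the ILC1-like rule was examined by the number of UMIs of the 5 ILC1 genes. NK barcodes with 0, 1 and 2 such UMIs held Irf8 at 754, 536 and 264 CPM in the wildtype and at 772, 466 and 78.2 CPM in the 3XTg-AD library. Zeb2 stood at 219, 168 and 37.8 CPM in the same wildtype barcodes, and at 260, 203 and 17.4 CPM in the 3XTg-AD ones. Both factors were thus lower just outside the threshold than at 0 such UMIs, in the 35 wildtype and 26 3XTg-AD NK barcodes with 2 such UMIs. Wildtype Irf8 there lay between its levels at 0 such UMIs and just inside the threshold, and Zeb2 rested on few UMIs. Just inside the threshold, the 19 wildtype barcodes with 3 UMIs held Irf8 at 62.6 CPM and no Zeb2 UMI, and the 22 3XTg-AD barcodes held 24.0 and 31.9 CPM. Id2 ran the other way, from 488 to 619 CPM between 0 and 2 UMIs in the wildtype and from 328 to 643 CPM in the 3XTg-AD library. Eomes fell from 222 to 189 and 151 CPM in the wildtype but stood at 240, 151 and 339 CPM in the 3XTg-AD library. The libraries thus shared no order for Eomes. Zfp683 had 7, 7 and 4 UMIs at 0, 1 and 2 ILC1-gene UMIs in the wildtype, which is 1.72 CPM (0.690 to 3.54), 17.6 CPM (7.08 to 36.3) and 30.2 CPM (8.23 to 77.4). In 3XTg-AD it had 3, 2 and 1 UMIs, too few to order.

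**Figure D3:**
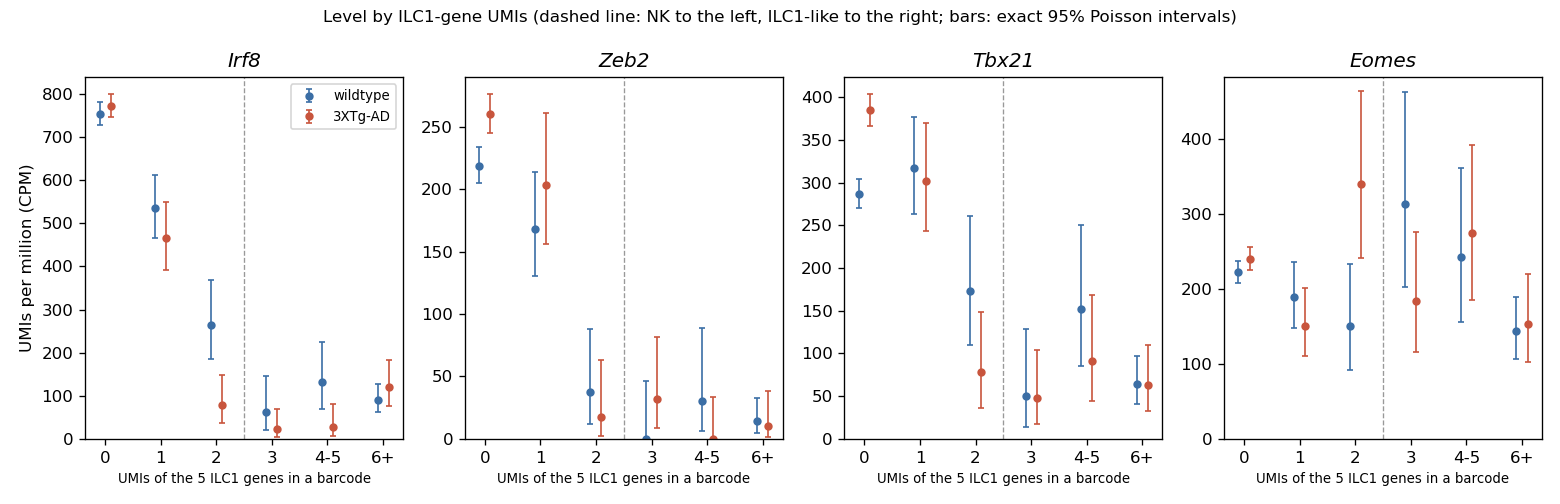
Level in CPM (y axis, linear, from 0) of Irf8, Zeb2, Tbx21 and Eomes by the number of UMIs of the 5 ILC1 genes in a barcode (x axis), with blue for wildtype, red for 3XTg-AD, bars for exact 95% Poisson intervals, and a dashed line between NK barcodes on the left and ILC1-like barcodes on the right. Irf8 and Zeb2 are already lower at 2 UMIs than at 0, left of the line, and Eomes shows no step.

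Tcf7, which encodes TCF-1, a factor of early NK cells and of naive T cells, differed between the libraries in ILC1-like barcodes. It stood at 30.0 CPM (17.1 to 48.7) in the wildtype, on 16 UMIs in 13 of 92 barcodes, and at 75.4 CPM (51.6 to 106) in the 3XTg-AD library, on 32 UMIs in 23 of 75 barcodes, a ratio of 2.52 (1.34 to 4.91). After thinning, the shares were 5.56% and 5.33%, so no order is read from them. Against NK barcodes, which held 27.6 and 27.9 CPM, the ILC1-like ratio was 1.09 (0.603 to 1.84) in the wildtype and 2.70 (1.77 to 4) in 3XTg-AD. T barcodes held 149 and 175 CPM of Tcf7. In ILC1-like barcodes 3 of the 9 T-cell markers were detected in each library, at a sum of 129 and 153 CPM against 3118 and 3560 CPM in T barcodes. Cd3g gave 59 and 61 of these UMIs, and Cd3e, Cd4, Cd8a, Cd8b1, Cd5 and Cd6 were at 0 in both libraries. The part of T-cell RNA in the Tcf7 difference was not tested.

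Of the 6 members measured between the libraries in ILC1-like barcodes, Tcf7 was at least 1.5-fold higher and Nfil3 lower in 3XTg-AD, where 22.1% of 5190 genes were called (10.0% higher and 12.1% lower). The Nfil3 ratio, 0.572 (0.242 to 1.26), had an interval that held 1. Id2 at 1.13 (0.971 to 1.32), Tbx21 at 0.839 (0.501 to 1.39), Eomes at 1.03 (0.761 to 1.40) and Irf8 at 0.730 (0.445 to 1.18) also had intervals that held 1. Zfp683 had 3 UMIs in 3XTg-AD against 16 in the wildtype, a ratio of 0.236 (0.0441 to 0.824) on fewer than 20 UMIs. Neither gene counted as measured when the barcodes were thinned to 1400 UMIs, though the Tcf7 log2 ratio, 1.33 in the full counts, was still 0.68 there and lay between 0.68 and 2.61 under the alternatives run. The ILC1-like barcodes also differed in make-up between the libraries. Gzmc, a gene of the rule, stood at 1388 CPM in the wildtype and 323 CPM in 3XTg-AD, 6 of 10 measured genes of mature NK cells were lower in 3XTg-AD, Gzma, Gzmb and Prf1 among them, and 9 of 10 interferon-stimulated genes were lower. Of 10 measured genes of immature NK cells, 5 were higher and 0 lower, and of 11 measured ILC1 genes, 4 were higher and 1 lower. Il7r and Cxcr3 were higher on both of these lists. Their part in the Tcf7 and Nfil3 ratios was not tested.

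Within ILC1-like barcodes, Eomes was unevenly spread. The barcodes were split, after the data were seen, by detection of Tmem176a or Tmem176b, a pair of ILC1-associated membrane protein genes outside the rule. Eomes had 4 UMIs in the 23 wildtype barcodes with a Tmem176 UMI (32.5 CPM) and 96 UMIs in the 69 without (234 CPM), 7.20-fold lower in the former. In the 3XTg-AD library it had 2 UMIs in 21 barcodes (19.3 CPM) against 80 in 54 (250 CPM), a ratio of 0.0772 (0.00919 to 0.288). Barcodes without a Tmem176 UMI thus held Eomes at or above the NK level of their library, and those with one held little of it.

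Eomes was the only member of the 4 measured in this split to be called in both libraries, where 6.55% of 2658 genes were (3.2% higher and 3.35% lower). Tbx21 had 89.3 and 75.5 CPM with and without a Tmem176 UMI in the wildtype and 86.7 and 59.3 CPM in the 3XTg-AD library, low on both sides. Id2 had 495 and 709 CPM in the wildtype, and 723 and 755 CPM in the 3XTg-AD library. Tcf7 had 64.9 and 19.5 CPM in the wildtype, a ratio of 3.33 (1.09 to 10.2) on 8 UMIs each, and 96.3 and 68.7 CPM in the 3XTg-AD library. Il7r, the interleukin-7 receptor chain found on many innate lymphoid cells, had 179 and 14.6 CPM, and 347 and 3.12 CPM. Interferon-stimulated genes summed to 2272 and 309 CPM in the wildtype and to 626 and 240 CPM in the 3XTg-AD library, and T-cell markers to 138 and 127, and to 289 and 109 CPM. Their part in the Eomes difference was not tested. When barcodes were thinned before any rule was applied, too few UMIs were left to call Eomes in both libraries, and its wildtype log2 ratio was -1.91 in place of -2.85. That setting also took 2 in place of 3 ILC1-gene UMIs for the ILC1-like group.

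**Figure D4:**
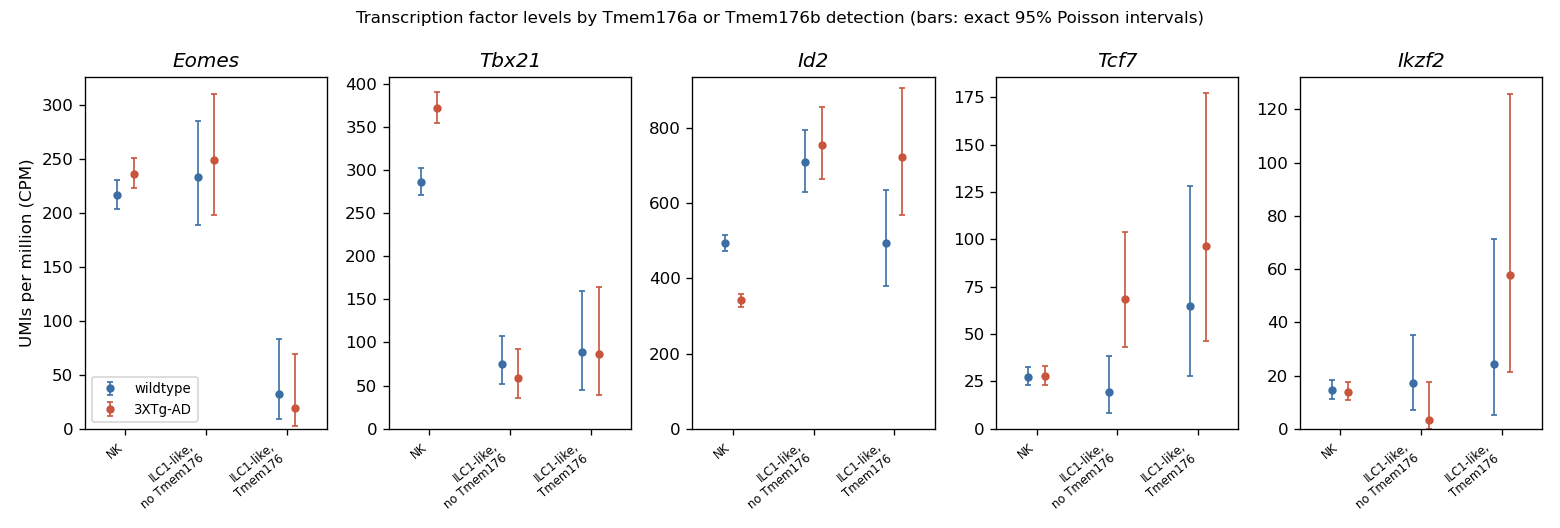
Level in CPM (y axis, linear, from 0) of Eomes, Tbx21, Id2, Tcf7 and Ikzf2 in NK barcodes and in ILC1-like barcodes without and with a Tmem176a or Tmem176b UMI (x axis), with blue for wildtype, red for 3XTg-AD and bars for exact 95% Poisson intervals. Eomes is at 32.5 and 19.3 CPM with a Tmem176 UMI and at 234 and 250 CPM without, while Tbx21 is low on both sides. Tcf7 in the wildtype and Ikzf2 in both libraries had under 20 UMIs, so neither counted as measured in this split. The Ikzf2 log2 ratios of 0.51 in the wildtype and 4.21 in 3XTg-AD rest on these few UMIs.

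Within the NK barcodes, maturation was followed by detection of Cd27 and Klrg1. The least mature class, Cd27+ Klrg1-, held 123 wildtype and 95 3XTg-AD barcodes, and the most mature, Cd27- Klrg1+, held 680 and 681. Between them, Cd27+ Klrg1+ held 29 and 38. A further 651 and 696 barcodes had neither UMI, at medians of 2513 and 2504 UMIs against 3098 and 3008 in the Cd27- Klrg1+ class, and the part of depth in their missing UMIs was not tested. In Cd27+ Klrg1- and Cd27- Klrg1+ barcodes, a list of dividing-cell genes summed to 34.3 and 212 CPM in the wildtype and 25.7 and 313 CPM in 3XTg-AD. Interferon-stimulated genes summed to 862 and 392 CPM, and to 296 and 256 CPM. The part of both lists in the ratios between these classes was not tested.

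Tcf7 had the strongest order with maturation. It stood at 66.1 CPM in Cd27+ Klrg1- and 9.42 CPM in Cd27- Klrg1+ barcodes of the wildtype, and at 109 and 10.4 CPM in the 3XTg-AD library, which is 7.02-fold and 10.5-fold lower. By the number of Klrg1 UMIs, 0, 1, 2 and 3 or more, it stood at 47.1, 15.7, 11.2 and 6.86 CPM in the wildtype and 47.5, 14.4, 9.29 and 8.35 CPM in the 3XTg-AD library. Barcodes without a Klrg1 UMI thus stood above the others in both libraries, while the levels at 1, 2 and 3 or more, on 5 to 14 UMIs each, had overlapping intervals.

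Eomes followed the same direction over a smaller range. It stood at 287 CPM in Cd27+ Klrg1- and 175 CPM in Cd27- Klrg1+ barcodes of the wildtype, a ratio of 0.609 (0.495 to 0.755), and at 428 and 185 CPM in the 3XTg-AD library, a ratio of 0.433 (0.355 to 0.530). Ikzf2 was also lower, at 14.7 and 8.13 CPM and at 29.0 and 9.10 CPM, with ratios of 0.553 (0.212 to 1.69) and 0.314 (0.138 to 0.780). It rested on 6 and 9 UMIs in the Cd27+ Klrg1- class, and its wildtype interval held 1.

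Zeb2 and Irf8 ran opposite to Tcf7. Zeb2 stood at 103 CPM (74.1 to 139) in Cd27+ Klrg1- and 243 CPM in Cd27- Klrg1+ barcodes of the wildtype, a ratio of 2.36 (1.72 to 3.31), and at 145 CPM (106 to 194) and 272 CPM in the 3XTg-AD library, a ratio of 1.88 (1.39 to 2.60). Irf8 stood at 350 and 874 CPM, a ratio of 2.5 (2.11 to 2.98), and at 425 and 872 CPM, a ratio of 2.05 (1.72 to 2.47). With 2 UMIs for a positive class, the log2 ratios were 2.19 and 2.01 for Zeb2, against 1.24 and 0.91, and 2.77 for Irf8 in 3XTg-AD, against 1.04. The most mature class was the highest of the NK classes for both factors in both libraries. Its neighbour in the order did not differ from it beyond the interval for Zeb2 in either library and for Irf8 in 3XTg-AD, while in the wildtype the Irf8 level was 1.42-fold (1.32 to 1.53) that of the next class.

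Tbx21 differed by less, with 201 and 330 CPM in the wildtype, a ratio of 1.65 (1.31 to 2.09), and 296 and 411 CPM in the 3XTg-AD library, a ratio of 1.39 (1.12 to 1.74), short of the 1.5-fold size. Prdm1, at 1.33 and 1.09, and Nfil3, at 1.20 and 1.34, were under that size in both libraries. Id2 ratios were 1.06 and 1.26. These 3 were unstable: Nfil3 passed that size in both libraries, with log2 ratios of 1.31 and 0.65, when barcodes were thinned before any rule, Prdm1 turned to -0.36 in the wildtype with thinning after the rules, and Id2 in 3XTg-AD ran from -0.47, with 2 UMIs for a positive class, to 0.74, in barcodes without an ILC1-gene UMI. Of the 9 measured members, 2 were thus called higher and 3 lower, where 4.65% and 3.39% of 7630 measured genes were (8.05% in either direction). Their median log2 ratio was 0.26 in the wildtype and 0.33 in the 3XTg-AD library, against 0.03 in both for all measured genes. The count became 3 when barcodes were thinned to 1400 UMIs and when a positive class needed 2 UMIs. Tcf7 kept log2 ratios of at most -2.46 in both settings, but had too few UMIs to count as measured. Ikzf2 was not called in either setting. With thinning before any rule, Eomes had a wildtype log2 ratio of -0.54, short of the size counted. Thinning before any rule also took 2 in place of 3 ILC1-gene UMIs for the ILC1-like group.

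Between the libraries, Id2 had the broadest difference across NK barcodes. Its ratio of 3XTg-AD to wildtype was 0.692 (0.649 to 0.739), just short of the 1.5-fold size, and thinned shares of barcodes with an Id2 UMI were 47.1% in the wildtype and 33.9% in 3XTg-AD. Within Cd27- Klrg1- barcodes the level was 530 CPM in the wildtype and 303 CPM in 3XTg-AD, a ratio of 0.571 (0.513 to 0.635). Within Cd27- Klrg1+ barcodes it was 479 and 381 CPM, a ratio of 0.795 (0.727 to 0.869). The Cd27+ Klrg1- ratio was 0.667 (0.515 to 0.860), and the Cd27+ Klrg1+ ratio, 0.771 (0.509 to 1.17), had an interval that held 1. Id2 was therefore lower in 3XTg-AD in each of the 4 NK classes, while in ILC1-like barcodes its ratio was 1.13. Whether these ratios differ from each other was not tested, since each group is 1 library. Past the 1.5-fold size within a class were Id2 (lower, Cd27- Klrg1-) and Tcf7 (higher, Cd27+ Klrg1-, with a ratio of 1.65 and an interval of 0.969 to 2.85). The shares of all measured genes past that size, higher and lower, were 12.2% and 10.9% in Cd27+ Klrg1-, 14.3% and 10.9% in Cd27+ Klrg1+, 8.6% and 6.01% in Cd27- Klrg1+, and 8.64% and 6.42% in Cd27- Klrg1- barcodes. Interferon-stimulated genes were also lower in 3XTg-AD NK barcodes (646 and 270 CPM), with 15 of 15 measured called lower and a median log2 ratio of -3.04. Their wildtype and 3XTg-AD sums were 971 and 290 CPM in Cd27- Klrg1- and 862 and 296 CPM in Cd27+ Klrg1- barcodes. The sums were 392 and 256 CPM in Cd27- Klrg1+ and 196 and 209 CPM in Cd27+ Klrg1+ barcodes. The part of these genes in the Id2 ratios was not tested. Without dividing and interferon-high barcodes the Id2 log2 ratio was -0.55, against -0.53 with them. That setting drops only barcodes with at least 5 dividing or 10 interferon UMIs, and the interferon level of the others is not given here.

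By 0, 1, 2 and 3 or more Klrg1 UMIs, Id2 stood at 515, 517, 462 and 452 CPM in the wildtype and 303, 357, 347 and 409 CPM in 3XTg-AD. Whether the libraries differ in this was not tested.

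Tbx21 was higher in 3XTg-AD NK barcodes, at 1.30 (1.21 to 1.40) over all NK classes, with 1.47 in Cd27+ Klrg1-, 1.39 (1.23 to 1.58) in Cd27- Klrg1-, 1.24 (1.13 to 1.37) in Cd27- Klrg1+ and 1 (0.674 to 1.5) in Cd27+ Klrg1+ barcodes. Zeb2 had a ratio of 1.20 (1.10 to 1.30) and Nfil3 of 1.25 (1.03 to 1.5). Eomes had a ratio of 1.09 (0.999 to 1.19), and of 1.49 (1.16 to 1.93) in Cd27+ Klrg1- barcodes. Prdm1 had a ratio of 1.48 (1.06 to 2.10) in Cd27- Klrg1- barcodes. Whether these ratios differ between the classes was not tested. Irf8 at 1.02 (0.972 to 1.07), Prdm1 at 1.23 (0.988 to 1.52), Tcf7 at 1.01 (0.787 to 1.31) and Ikzf2 at 0.954 (0.666 to 1.36) had intervals that held 1. Immediate-early and heat-shock genes, at 2045 and 2493 CPM, were also higher in 3XTg-AD, and their part in these ratios was not tested.

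Zfp683 was the 1 member of 10 past the 1.5-fold size between the libraries in NK barcodes, with 18 and 6 UMIs and a ratio of 0.333 (0.108 to 0.875), where 12.2% of 9822 measured genes were called (6.42% higher and 5.79% lower). Of the 18 wildtype UMIs, 7 lay in barcodes without any UMI of the 5 ILC1 genes, and among such barcodes Zfp683 fell under 20 UMIs in all.

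**Figure D5:**
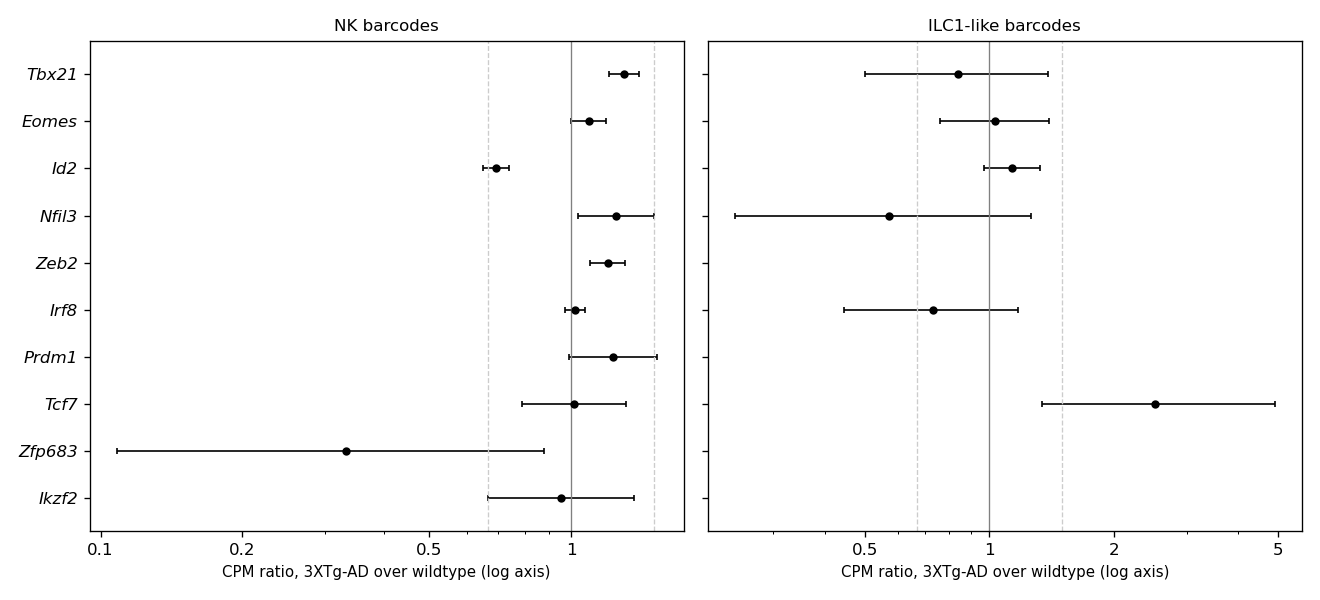
Ratio of 3XTg-AD to wildtype CPM on a log axis (x axis) for each measured transcription factor (y axis) in all NK barcodes (left) and in ILC1-like barcodes (right), with bars for exact 95% intervals, a solid line at 1 and dashed lines at 1.5-fold. In NK barcodes Id2 lies at 0.692, below 1, and Tbx21 at 1.30, above it, while in ILC1-like barcodes Tcf7 lies farthest right at 2.52; Zeb2, Prdm1, Zfp683 and Ikzf2 are not drawn there because they had under 20 UMIs.

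Detection of T-bet and Eomes in the same barcode was counted after thinning. Both were detected in 94 of 1367 wildtype NK barcodes (6.88%), where the product of the separate shares is 8.10%, and in 148 of 1431 3XTg-AD barcodes (10.3%, product 11.1%). The intervals of the observed shares, 5.59% to 8.35% and 8.81% to 12%, held the product in both libraries. In ILC1-like barcodes, 25.6% and 25.3% held Eomes alone, 6.67% and 10.7% Tbx21 alone, and 1.11% and 2.67% both.

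Pairwise covariation among the members was weak. Over the 45 pairs, Pearson's r of log(1 + UMIs) in thinned NK barcodes ran from -0.08 to 0.11 in the wildtype and from -0.10 to 0.08 in 3XTg-AD. The count of pairs at 0.1 or more in size with the same sign in both libraries was 0. Among 5333 genes with at least 200 UMIs, 0.0387% of all pairs passed. The members were kept whatever their UMIs, so the 2 sets are not alike in level. A share this small makes 0 of 45 the background count too. The median r in size was 0.0254 and 0.0181 for member pairs, against 0.0188 and 0.0183 for all pairs of that background. In the wildtype, Tbx21 with Irf8, Tcf7 with Irf8, Tbx21 with Id2 and Eomes with Ikzf2 passed the 99th percentile of the background pairs (0.0752). The last 2 were each at -0.02 in 3XTg-AD. Tbx21 with Irf8 (0.11 and 0.08), Tcf7 with Irf8 (-0.08 and -0.10) and Tbx21 with Zeb2 (0.07 and 0.08) had the largest mean r in size, followed by Zeb2 with Tcf7 (-0.06 and -0.07). These barcodes share a library and a fixed depth, and correlations of this size in sparse counts are no finding. Without thinning, 2 pairs passed, Tbx21 with Irf8 at 0.15 in both libraries and Tcf7 with Irf8 at -0.13 in both.

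The genes most like each member were ranked by the mean r over both libraries, among 5612 genes in 1457 wildtype and 1506 3XTg-AD thinned NK and ILC1-like barcodes, leaving out ribosomal protein and mitochondrial genes. These values describe barcodes of 2 libraries that mix both groups. Irf8 had the highest values, with Prf1 (0.34 and 0.27), Gzma (0.32 and 0.27) and Gzmb (0.34 and 0.20), which encode perforin and granzymes of the cytotoxic granule. Zeb2 was most like Gzma (0.15 and 0.18), Ccl5 and Rap1b, and Tbx21 most like Actb (0.19 and 0.15), Gzma and Actg1. Tcf7 was most like Ly6e (0.11 and 0.18), Il7r and Ltb, and Ikzf2 most like Il7r (0.19 and 0.14), Tmem176a and Cxcr6. Eomes was most like Klra4 (0.10 and 0.11), Shisa5 and Klra8, and Id2 most like Serpina3g (0.14 and 0.09), S100a4 and Ly6e. For Zfp683 the leading gene was Slc2a3 (0.10 and 0.16), for Prdm1 Pik3r5 (0.05 and 0.11) and for Nfil3 Prr14l (0.07 and 0.09).

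Other transcription factors of NK and innate lymphoid cells were read from a list of 57. In ILC1-like over NK barcodes 48 were measured, 3 were higher (Tox, Ahr and Rbpj) and 20 lower, where 5.92% and 13.5% of all measured genes were. The list's median log2 ratio was -0.55 in the wildtype and -0.64 in 3XTg-AD. Klf2, a quiescence and trafficking factor, had 24 ILC1-like UMIs and a ratio of 0.0400 (0.0256 to 0.0596) in the wildtype, and 2 UMIs and a ratio of 0.00424 (0.000513 to 0.0153) in 3XTg-AD. Smad3, a transducer of TGF-beta, had ratios of 0.171 and 0.231, and Klf12 of 0.375 and 0.258. In Cd27- Klrg1+ over Cd27+ Klrg1- barcodes 47 were measured, with Klf2 higher (1.53 and 1.59) and Tox, Foxo1, Bach2, Ahr and Maf lower, where 4.65% and 3.39% of all measured genes were. Foxo1, known to act upstream of Tcf7 in lymphocytes, had ratios of 0.463 and 0.589. Between the libraries in NK barcodes 52 were measured, with Foxo3 higher at 1.78 (1.34 to 2.38) and Myc (0.507, 0.409 to 0.626), Myb and Id3 among the 4 lower, where 6.42% and 5.79% of all measured genes were. In ILC1-like barcodes 37 were measured between the libraries, 5 higher and 4 lower, where 10.0% and 12.1% of all measured genes were, with the glucocorticoid-induced Tsc22d3 at 2.81 (1.94 to 4.12).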

How the data were processed

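Single-cell UMI counts were deposited by the authors as 1 matrix per library. Per the submitters' processing notes, Cell Ranger 3.1.0 with STAR and mm10 was used, while the matrix header names software version 3.0.2; the sources used here give no further settings. The deposited counts were used raw. Barcodes with under 300 genes or over 10% mitochondrial UMIs were left out (45 and 10, and 2 and 0), and Scrublet in scanpy 1.11.5 marked 13 and 22 doublets. NK and ILC1-like barcodes needed 2 lineage UMIs and under 3 T-cell, 5 myeloid and 3 B-cell marker UMIs. The B-cell rule removed 15 and 16 barcodes that held Ighm but neither Cd79a nor Ms4a1, 7 and 4 of which met the ILC1 rule; leaving it out was added as an alternative after the data were seen. UMIs were summed per group and compared as CPM ratios with exact conditional binomial 95% intervals (scipy 1.17.1), and levels with exact Poisson intervals. Shares of single groups have exact Clopper-Pearson intervals in the tables. The ratio code was tested on simulated data. With 1 library per group no test was possible.

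The members and all lists were chosen with earlier results of these data known. The named genes are the 10 members, the 3 genes most like each by mean r, and of the other factors the 5 with the largest mean change among those with 100 UMIs, of which some are given, besides those counted as called. A result on a further listed factor is not reported here. The Tmem176 split was chosen after the data were seen. No column of another sample was present (0). Gene models came from GENCODE M21 and promoters from RefSeq (GRCm38.p6).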

Additional observations from a re-analysis of the deposited data

How the results depend on the processing

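Of 889 values of single members and member pairs under alternative settings, 837 were counted as the same, 51 as moved and 1 as reversed. For single members, the same meant a move of less than the counting interval. The 837 include 76 with no minimum of UMIs, which enters the calls and not the ratios, so these could not move. The 1 that changed its direction past the size counted was Nfil3 by Tmem176 detection in wildtype ILC1-like barcodes. Its log2 ratio was -0.93, and 0.67 when barcodes were thinned to 1400 UMIs before any rule. Tbx21, Zeb2 and Irf8 stayed lower in ILC1-like than NK barcodes in both libraries under the alternatives run, with log2 ratios of -2.60 to -1.13 for Tbx21, -4.72 to -1.99 for Zeb2 and -4.06 to -2.49 for Irf8. The members called between the libraries in NK barcodes, 1 in the report, were 2 with a mean over barcodes (Id2 was added), and 0 in NK barcodes without an ILC1-gene UMI, within Cd27+ Klrg1+ or Cd27- Klrg1+ barcodes, and with thinning before any rule. In ILC1-like barcodes the 2 called became 4 with no doublets removed and 4 without the B-cell rule (Irf8 at -0.76 and Ikzf2 at -0.72 were added), 1 at 5 ILC1-gene UMIs, and 0 with thinning after or before the rules; thinning put the Tbx21 log2 ratio at 1.04. In the maturation contrast the 5 called became 3 with thinning after or before the rules and 3 with 2 UMIs for a positive class. The Eomes call by Tmem176 detection, 1, became 0 with thinning before the rules, and the 0 member pairs became 2 with all UMIs. Thinning leaves fewer UMIs and fewer measured genes. Thinning before the rules also came with 2 in place of 3 ILC1-gene UMIs for the ILC1-like group. The parts of depth and threshold in that setting cannot be told apart, and other causes were not tested. No paired analysis was possible because each group is 1 library. At this depth Zfp683, and Prdm1 and Zeb2 in ILC1-like barcodes, rest on few UMIs.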
